A study of Mus musculus with 3 samples.

Results

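The cytosolic ribosome of the mouse is built from rRNA and a fixed set of proteins, and the genes of those proteins are described here by the open chromatin at their promoters in embryonic liver. A protein-coding gene was a member where its symbol was Rpl or Rps with a number, with or without a suffix letter and a final l, or was Rpsa, Rplp0, Rplp1 or Rplp2. The kinases named Rps6k were left out. The rule uses names alone and found 81 of 21851 protein-coding genes in the GENCODE annotation of the mouse build mm10. Of these, 31 encode proteins of the small subunit (Rps) and 50 proteins of the large subunit (Rpl), counting 5 that are close copies (paralogues) of other members: Rpl3l, Rpl10l, Rpl36al, Rpl39l and Rps27l. The genes lay on 19 chromosomes, and 14 of them lay on chromosome 7.

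Ribosomal proteins are made in near equal numbers and are needed in every growing cell. Their promoters often lack a canonical TATA box, lie in CpG islands and start transcription at a C within a run of pyrimidines, which becomes the terminal oligopyrimidine (TOP) tract through which the mTOR pathway controls their translation. Many of the genes carry small nucleolar RNAs (snoRNAs), guides for the chemical modification of rRNA, in their introns. The liver of the mid-gestation embryo is the main site of blood formation, and red cell precursors are known to be sensitive to a shortage of ribosomal proteins: loss of 1 copy of such a gene is the usual cause of Diamond-Blackfan anaemia, a failure of red cell production.

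The assay was DNase-seq, in which nuclei are treated with the nuclease DNase I and the ends of the released fragments are read, so that DNA free of nucleosomes stands out. The 3 libraries came from the liver of embryos at 13.5 days. The mice were of the strain C57BL/6N,129, wild type (WT), and every sample carried the A20 YAC, a yeast artificial chromosome, as a single copy. The libraries are numbered as biological replicates 1, 2 and 3 with a separate biosample each and 1 donor entry in common, so the spread between them may be partly technical. They formed 1 group without a control or treatment, so nothing could be tested between groups and the values below describe this tissue only.

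The libraries held 34369, 122281 and 60862 peaks and 89836, 342756 and 156638 footprints, which are short stretches protected from cutting inside open DNA. The promoter window of a gene reached 1000 bp to each side of each transcription start site (TSS) of its coding transcripts. A peak or footprint belonged to it with an overlap of at least 1 bp. The strongest of its peaks gave its signal, in the authors' units, whose scaling is not given in the sources used here. Signals were therefore compared between libraries as percentiles, the percentage of all protein-coding genes that scored lower in that library, with genes lacking a peak at 0. Bulk tissue was used, so a lower signal can stem from fewer open cells or from less cutting per cell, and these cannot be told apart. As a check of the labelled tissue, the promoters of 10 of 10 erythroid markers had peaks in every library. Of 8 hepatoblast markers 4 had one (50%), near the 51.4% of all protein-coding genes. They were Foxa3, a liver transcription factor with signals of 4.23, 13.6 and 8.09, and Hhex, Prox1 and Trf. The strongest Foxa3 peaks were centred at -822, -792 and -822 bp from its TSS. The Foxa3 window also holds a start of the gene Sympk, so its signal is shared with that gene. Alb, the gene of albumin, had no promoter peak in any library, and Afp, the gene of alpha-fetoprotein, had signals of 0, 0.639 and 0.623.

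Nearly every ribosomal protein gene had an open promoter. A promoter peak was present for 78, 81 and 79 of the 81 members in replicates 1, 2 and 3, where 54.0%, 67.3% and 56.4% of all protein-coding genes had one. In all 3 libraries 78 members (96.3%) had a peak, against 51.4% of protein-coding genes. The 3 exceptions, Rpl3l, Rpl10l and Rpl39l, were all paralogues, so that the 76 members that are no paralogues had a peak in every library without exception. The median percentile over the 81 members was 80.6, 81.1 and 81.0, a mean of 80.9 ± 0.238 (SD, n = 3 libraries). The 11236 protein-coding genes with a peak in all 3 libraries had a median percentile of 74.3 ± 0.0159 (SD, n = 3). That median is nearly fixed by their share of the ranked genes (51.4%), so its small SD does not measure how well the libraries agree. The 78 members with a peak in all 3 libraries had medians of 82.1, 82.0 and 82.6. In raw signal the 78 members had medians of 4.09, 11.1 and 7.83, against 3.13, 7.78 and 4.96 for those 11236 genes.

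The members were ordered along a continuous range rather than at 1 common level. In replicate 1 the 78 promoters spanned percentiles of 58.8 to 99.8, in replicate 2 of 59.3 to 98.9 and in replicate 3 of 58.4 to 98.6. In every library all 78 stood at or above the 50th percentile, 46 at or above the 75th and 16 at or above the 90th. The first of these counts follows in large part from the choice of genes with peaks, and that choice raises the others too. Only 54.0%, 67.3% and 56.4% of coding genes had a peak in replicates 1, 2 and 3, and those without one rank lowest. The share of the 11236 genes that reached these limits in every library was not counted. The counts of 46 and 16 can therefore not be read as particular to the members. Signals at the ends of the range were far apart: the lowest and highest were 1.5 and 10.2 in replicate 1, 2.95 and 27.8 in replicate 2, and 1.48 and 22.5 in replicate 3. Across the 78 members, signals of replicates 1 and 2 had a Spearman correlation of 0.927, those of replicates 1 and 3 of 0.717 and those of replicates 2 and 3 of 0.869. Over the 11236 genes it was 0.946, 0.879 and 0.958. These are descriptions across genes of the same libraries, and genes are not independent replicates.

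**Figure D1:**
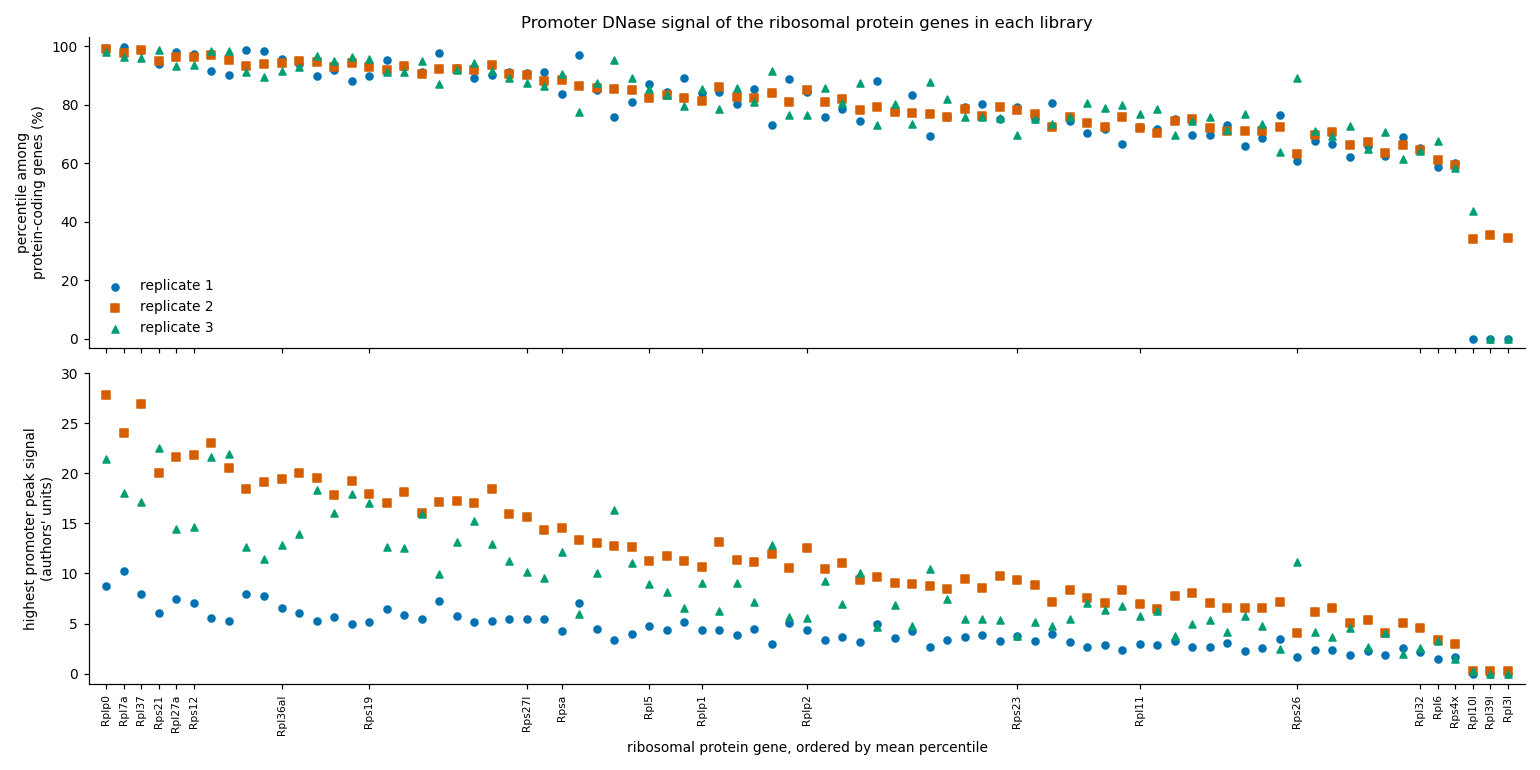
Percentile of promoter signal among protein-coding genes (top, in %) and highest promoter peak signal (bottom, in the authors' units) for each of the 81 ribosomal protein genes, ordered by mean percentile, with 1 marker per replicate and names for some of the genes described in the text. The 78 genes from Rplp0 to Rps4x lie at or above 58.4 in every library, and only Rpl10l, Rpl39l and Rpl3l fall to 0 in at least 1 library.

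The 4 strongest promoters were those of Rplp0, Rpl7a, Rpl37 and Rps21. Rplp0 (chromosome 5, 115559467 to 115563727, plus strand), the scaffold of the stalk that recruits elongation factors to the ribosome, had signals of 8.80, 27.8 and 21.4. That placed it at percentiles of 99.3, 98.9 and 98.1, with a mean of 98.8 ± 0.599 (SD, n = 3). Rpl7a (chromosome 2, 26910764 to 26913318, plus strand), a large-subunit protein whose gene hosts 3 snoRNAs, had signals of 10.2, 24.0 and 18. Its promoter window also holds the start of Med22, a Mediator subunit on the other strand, so its signal is shared with that gene. Rpl37 (chromosome 15, 5116645 to 5119140, plus strand), a large-subunit protein, had signals of 7.97, 26.9 and 17.1. Rps21 (chromosome 2, 180257377 to 180258445, plus strand), a small-subunit protein, had 6.10, 20 and 22.5. All 4 stood at or above the 94th percentile in every library. Rpl27a (7.43, 21.6 and 14.4) and Rps12 (7.10, 21.8 and 14.6) came next, with mean percentiles of 95.8 ± 2.30 and 95.7 ± 1.87 (SD, n = 3).

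The promoters of these 4 genes are shown because their footprints differ in place and in sequence. Each runs from 150 bp before the TSS to the first 20 transcribed bases, 5′ to 3′ on the gene's strand. The Rpl7a promoter is shown from 86 bp before the TSS, short of the start of Med22. Capitals mark bases that lay in a footprint of all 3 libraries, and lower case all other bases. Positions are chr5:115559317-115559486, chr2:26910678-26910783, chr15:5116495-5116664 and chr2:180257227-180257396 in mm10, all on the plus strand.
Rplp0: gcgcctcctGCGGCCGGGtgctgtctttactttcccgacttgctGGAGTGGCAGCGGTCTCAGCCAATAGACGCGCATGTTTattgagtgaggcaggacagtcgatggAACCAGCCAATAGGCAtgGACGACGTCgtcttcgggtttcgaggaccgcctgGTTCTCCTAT
Rpl7a: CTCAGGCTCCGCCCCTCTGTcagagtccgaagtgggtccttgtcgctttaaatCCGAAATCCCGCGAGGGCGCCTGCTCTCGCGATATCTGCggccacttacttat
Rpl37: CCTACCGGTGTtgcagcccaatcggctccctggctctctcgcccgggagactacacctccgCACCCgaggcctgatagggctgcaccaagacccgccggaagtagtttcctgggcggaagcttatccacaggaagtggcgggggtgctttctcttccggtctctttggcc
Rps21: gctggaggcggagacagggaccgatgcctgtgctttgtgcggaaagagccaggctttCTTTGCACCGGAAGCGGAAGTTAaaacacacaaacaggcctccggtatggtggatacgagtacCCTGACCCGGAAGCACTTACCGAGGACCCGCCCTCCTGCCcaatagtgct

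In Rplp0, 82 of the 170 bases were in footprints of all 3 libraries. They included both matches of the CCAAT box, the element bound by NF-Y, which began 87 and 36 bp before the TSS. In Rps21 the shared footprints covered 63 bases, with both matches of the ETS element CCGGAAG, at 86 and 24 bp before the TSS, and a match of the SP/KLF element GGGCGG that began 3 bp before it, read on the other strand. In Rpl7a 59 of 106 bases were covered, with a GGGCGG match 78 bp before the TSS read on the other strand. In Rpl37 only 16 of the 170 bases were covered. Its ETS matches 55 bp before and 2 bp after the TSS lay in a footprint of 1 library each, and its GGGCGG match inside footprints of all 3 libraries began 178 bp before the TSS, outside the stretch shown. The strongest Rpl37 peaks were centred 164, 154 and 144 bp before the TSS.

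At the lower end of the open promoters stood Rps4x, Rpl6 and Rpl32. Rps4x (chromosome X, 102184941 to 102189394, minus strand), a small-subunit protein, had signals of 1.61, 2.95 and 1.48 and a mean percentile of 59.2 ± 0.707 (SD, n = 3). Rpl6 (chromosome 5, 121204481 to 121209241, plus strand), a large-subunit protein, had signals of 1.5, 3.39 and 3.27 and a mean percentile of 62.4 ± 4.57. Rpl32 had signals of 2.13, 4.51 and 2.55 and a mean percentile of 64.6 ± 0.393. All 3 lay below the median of the 11236 genes with a peak in all 3 libraries. The promoters of Rps4x (chrX:102189375-102189544, minus strand) and Rpl6 (chr5:121204331-121204500, plus strand) are shown in the same way, for contrast with the 4 strongest.
Rps4x: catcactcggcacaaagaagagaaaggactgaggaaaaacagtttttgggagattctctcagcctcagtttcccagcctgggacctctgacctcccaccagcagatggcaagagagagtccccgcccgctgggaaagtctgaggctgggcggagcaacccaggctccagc
Rpl6: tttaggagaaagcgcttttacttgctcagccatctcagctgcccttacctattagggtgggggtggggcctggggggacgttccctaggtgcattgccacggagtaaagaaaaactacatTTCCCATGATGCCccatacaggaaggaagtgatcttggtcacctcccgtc

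No base of the Rps4x stretch lay in a footprint of all 3 libraries, although it holds a pair of GGGCGG matches, 29 and 4 bp before the TSS. Rps4x had 3, 5 and 1 promoter footprints in replicates 1, 2 and 3, of which 1 position was shared. In Rpl6 the shared bases were 1 run of 13, and none of the 10 motifs searched matched in the stretch shown. Rpl6 had 60 CpG sites and Rps4x 58 in the 2001 bp around the TSS, where the median member had 96. Their CpG counts lay closer to the 64 of the median coding gene.

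Rank was steady between libraries for most members. The SD of a gene's percentile over the 3 libraries had a median of 2.81 points over the 78 members and 2.71 over the 11236 genes, and it was above 5 points for 16 members. Outside the 78, Rpl10l, Rpl39l and Rpl3l had SDs of 23.0, 20.4 and 19.9 through their values of 0. The largest SD among the 78 was that of Rps26 (chromosome 10, 128624534 to 128626747, minus strand), a small-subunit protein beside the exit channel of the mRNA and a Diamond-Blackfan anaemia gene. Rps26 had signals of 1.70, 4.01 and 11.1, at percentiles of 60.7, 63.0 and 88.9, an SD of 15.7. Its strongest peak was centred 296 bp after the TSS in replicate 1 but 104 and 84 bp before it in replicates 2 and 3, so the value of replicate 1 comes from another peak. Rps18 and Rpl10, named after their values were seen, had SDs of 9.31 and 9.25. Both Rps18 (72.9, 83.8 and 91.4) and Rpl10 (69.4, 76.7 and 87.8) were highest in replicate 3. Of the 78 members 31 had their highest percentile in replicate 1, 12 in replicate 2 and 35 in replicate 3.

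Both subunits were covered almost completely. All 31 small-subunit genes and 47 of 50 large-subunit genes (94.0%) had a peak in all 3 libraries. Their median percentiles were 83.3 ± 0.975 and 79.7 ± 0.167 (SD, n = 3), and the small subunit was higher in each library, with 84.2, 82.2 and 83.4 against 79.6, 79.7 and 79.9. The large-subunit median takes in the low values of Rpl3l, Rpl10l and Rpl39l, and the small subunit holds no such gene. The difference without them was not computed. Among the stalk proteins, Rplp1 had signals of 4.36, 10.6 and 9.05 and Rplp2 had 4.39, 12.5 and 5.60. Both are small acidic proteins that dimerise on Rplp0, and both stood well below it, at mean percentiles of 83.5 ± 2.18 and 81.9 ± 4.84. Rpsa, a small-subunit protein also known as the laminin receptor, had signals of 4.30, 14.5 and 12.1 and a mean percentile of 87.5 ± 3.51.

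Genes tied to anaemia had promoters in the middle of the members' range. All 19 members whose human counterparts are known to be mutated in Diamond-Blackfan anaemia had a peak in all 3 libraries, with a median percentile of 82.7 ± 2.19 (SD, n = 3). For the 57 other members that are no paralogues it was 81.1 ± 0.754. By library the anaemia list had medians of 85.2, 82.1 and 81.0, against 80.3, 81.1 and 81.8 for the others. The anaemia list was thus higher in replicates 1 and 2 and lower in replicate 3. Rps19 (chromosome 7, 24884371 to 24889806, plus strand), the most often mutated of them, had signals of 5.20, 17.9 and 17.0 and a mean percentile of 92.7 ± 3.03. Rpl5 and Rpl11 join 5S rRNA in a particle that can bind MDM2 and so stabilise p53. Rpl5 had signals of 4.76, 11.2 and 8.99 (84.8 ± 2.37) and Rpl11 had 2.92, 6.96 and 5.78 (73.7 ± 2.76). Rpl5 was above Rpl11 in every library.

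The paralogues fell into open and barely detected promoters. Rpl36al had signals of 6.58, 19.4 and 12.8 and a mean percentile of 93.8 ± 2.13 (SD, n = 3), and Rps27l, a p53-responsive copy of Rps27, had 5.44, 15.6 and 10.1 and 89.4 ± 1.87. Both were higher in every library than the genes they resemble. Rpl36a had 3.91, 7.17 and 4.74 (75.5 ± 4.45), and Rps27 had 2.63, 7.04 and 5.36 (72.4 ± 3.01). The window of Rpl36al also holds a start of Mgat2, a glycosyltransferase gene, and that of Rps27 a start of Rab13, so these signals are shared with neighbours. Rpl3l, known from striated muscle, had signals of 0, 0.233 and 0. Rpl39l and Rpl10l, known from the male germ line, had 0, 0.271 and 0, and 0, 0.226 and 0.215. Their non-zero signals lay at the 34.2nd to 43.7th percentile of their libraries. Their counterparts Rpl3 (5.46, 16.0 and 15.9), Rpl39 (2.53, 6.57 and 4.72) and Rpl10 (2.61, 8.77 and 10.4) were open in all 3 libraries. Rps27rt, a further copy of Rps27 outside the naming rule, had no promoter peak in any library, and Rps4l is not in the annotation used.

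**Figure D2:**
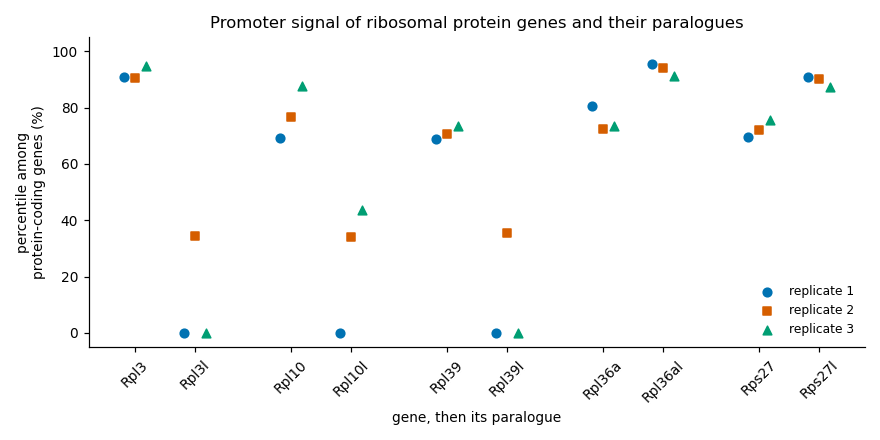
Percentile of promoter signal among protein-coding genes (in %) for 5 pairs of a ribosomal protein gene and its paralogue, with 1 marker per replicate. Rpl3l, Rpl10l and Rpl39l are at 0 in at least 1 library and at or below 43.7 in all, while Rpl36al and Rps27l lie above their counterparts in each library.

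The pair Rpl39 and Rpl39l, picked after its values were seen, shows such a contrast in sequence. The stretches are chrX:37085383-37085552 on the minus strand and chr16:10170076-10170245 on the plus strand, with capitals as before.
Rpl39: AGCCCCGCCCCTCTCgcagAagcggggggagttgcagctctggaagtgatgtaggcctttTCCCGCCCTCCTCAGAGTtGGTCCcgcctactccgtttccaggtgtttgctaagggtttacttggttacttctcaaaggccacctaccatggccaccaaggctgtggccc
Rpl39l: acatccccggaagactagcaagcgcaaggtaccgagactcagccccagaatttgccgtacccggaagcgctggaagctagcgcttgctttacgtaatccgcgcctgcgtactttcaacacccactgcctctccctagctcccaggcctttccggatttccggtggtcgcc

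Rpl39 held 39 bases in footprints of all 3 libraries, with GGGCGG matches that began 146 and 88 bp before the TSS, read on the other strand. Rpl39l held none. Its stretch has an ETS match CCGGAAG 144 and 90 bp before the TSS, and neither lay in a footprint of any library. The FDR intervals, runs of positions at which the authors list a false discovery rate of at most 0.05, tell the same difference without the peak lists. They covered 939, 1748 and 1283 bp of the Rpl39 window and 0, 245 and 0 bp of the Rpl39l window. For Rpl3l they covered 0, 107 and 0 bp and for Rpl10l 0, 139 and 64 bp. Copied sequence was measured because reads from it may not be placed. Of the 32-base words of a member's window, a median of 7.72% (range 0 to 31.3%) occurred more than once in the genome. The share was 0% for Rpl39l, 3.25% for Rpl3l and 28.1% for Rpl10l.

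Open chromatin sat tightly over the start of the genes. The midpoint of the strongest promoter peak lay at a median of 25, 23.5 and 33.5 bp before the nearest coding TSS in replicates 1, 2 and 3, a signed mean of -27.3 ± 5.39 bp (SD, n = 3). Over all coding genes with a peak it was -31.2 ± 9.07 bp. The midpoint lay within 100 bp of a TSS in 74.4%, 74.1% and 82.3% of members with a peak, against 62.9%, 60% and 64.7% of all coding genes with one. In 72 of the 78 members it lay within 200 bp in every library. The 6 others, named after their values were seen, were Rpl4, Rpl6, Rpl7, Rpl35, Rps25 and Rps26. The strongest Rpl35 peak was centred 464, 454 and 424 bp after the TSS, inside the gene. That of Rpl4 was centred 504, 474 and 434 bp before the TSS, where Zwilch, a kinetochore gene, starts nearby. Rpl7 switched between libraries, with 242 bp after the TSS in replicates 1 and 3 and 338 bp before it in replicate 2.

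Open positions of the members were concentrated around the start. In the 200 bp after the TSS, FDR intervals covered 95.1%, 100% and 97.4% of positions of the 78 members, against 83.6%, 96.3% and 85.5% for the other coding genes with a peak in all 3 libraries. Between 500 and 1000 bp after the TSS the order was the reverse in replicates 1 and 3. There the shares were 8.93% and 12.1% for members and 20.1% and 25.2% for the others, while in replicate 2 they were 54.9% and 52.3%. Between 500 and 1000 bp before the TSS members had 5.79%, 27.1% and 12.3% and the others 10.2%, 29.7% and 15.6%. Footprints showed the same tilt. In the 200 bp after the TSS they covered 11.4%, 33.7% and 17.8% of positions of members and 7.82%, 24.3% and 12.2% of the others. In the 200 bp before it the values were closer, at 16.4%, 32.7% and 26.8% against 15.4%, 30.5% and 23.0%. The highest 20-bp bin of footprints for members was the one just before the TSS in replicates 1 and 3, with 26.9% and 35.5% of positions, and the bin from 80 to 61 bp before it in replicate 2, with 41.7%.

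**Figure D3:**
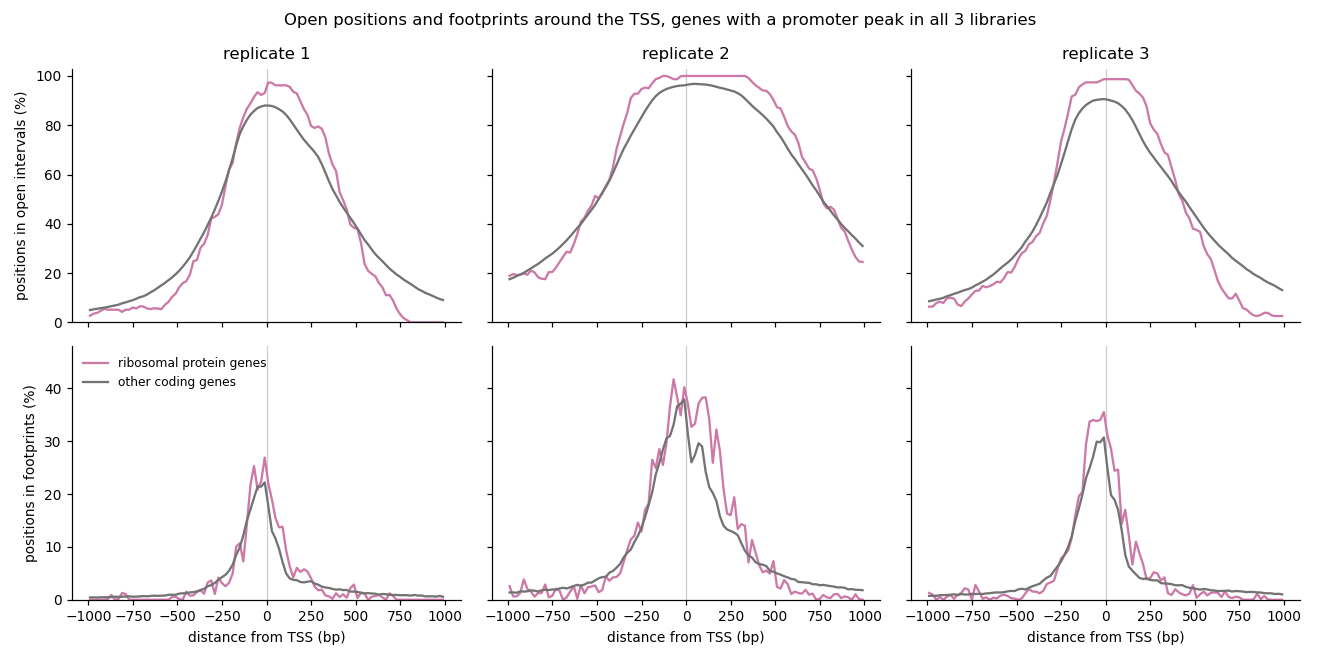
Share of positions (in %) covered by open intervals (top) and by footprints (bottom) in 20-bp bins against the distance from the TSS (in bp), for the 78 ribosomal protein genes and the other coding genes with a promoter peak in all 3 libraries, 1 column per replicate. The curves of the ribosomal protein genes stand on average above the others in the 200 bp after the TSS, and in replicates 1 and 3 they drop below them beyond 500 bp.

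As a set, the members ranked lower by width than by strength. How far both ranks agreed across single members was not computed. The members' windows held a median of 749, 1307 and 845 open bp, a mean of 967 ± 298 (SD, n = 3). The coding genes with a peak in all 3 libraries held 748, 1317 and 869, and all coding genes 200, 781 and 264. Ranked by open bp in place of signal, the median percentile of the members was 73.2 ± 0.977 (SD, n = 3), below the 80.9 ± 0.238 by signal. Rplp0 was an example. It ranked at the 98.8th percentile by signal on average, whereas its 756, 889 and 551 open bp placed it at percentiles of 74.6, 53.9 and 60.2. Rpl7, named after its values were seen, was the reverse, with a mean percentile of 68.9 ± 2.09 by signal and of 97.4, 93.9 and 96.2 by its 1546, 1961 and 1605 open bp.

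A promoter footprint was found in all 3 libraries for 78 members (96.3%), against 49.5% of all protein-coding genes. Among the 11236 genes with a peak in all 3 libraries the share was 96.2%, close to that of the members. The median number of footprints was 5, 13 and 7 for members and 5, 12 and 7 for those genes, with a median of 3 footprint positions shared by all 3 libraries in both sets. Rps19 had the most shared positions, 7, among 11, 20 and 13 footprints in replicates 1, 2 and 3. Its strongest peak was centred 110, 130 and 100 bp after the TSS. Rplp0, Rps12 and Rps23 followed with 6 each. Rps23, a protein of the decoding centre, reached that number with a mean percentile of only 75.8 ± 5.30.

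Sequence elements were counted from 250 bp before to 50 bp after the TSS with the highest signal, on both strands, for 10 short motifs. The ETS element CCGGAAG was present in 32.1% of the 78 members with a peak in all 3 libraries, against 19.3% of all coding genes with such peaks and 11.3% of all coding genes. ACTACAA, part of the element of ZNF143, was present in 12.8%, against 4.57% and 3.79%. The letters TATAAA were present in 11.5%, against 6.29% of the open promoters and 12.3% of all. These matches were counted anywhere in the window and on both strands, not at a set distance from the TSS. In members they began from 137 bp before the TSS (Rps2) to 37 bp after it (Rps28), so the share is not one of TATA boxes. The SP/KLF element GGGCGG went the other way, with 52.6% of members, 67.5% of the open promoters and 45.8% of all coding promoters. CCAAT (NF-Y) was present in 33.3%, 39.7% and 38.8% of the 3 sets. The shares of members and of open promoters were 11.5% and 10.6% for the E-box CACGTG. They were 6.41% and 4.76% for AAGATGGC (YY1), and 6.41% and 3.89% for TGACGTCA (CRE). They were 3.85% and 5.95% for GCGCATGC (NRF1), and 6.41% and 5.86% for AGATAA, the element of GATA factors. No motif holds another, and matches of different motifs may overlap at their ends. A match is a description of the sequence, not a bound site.

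**Figure D4:**
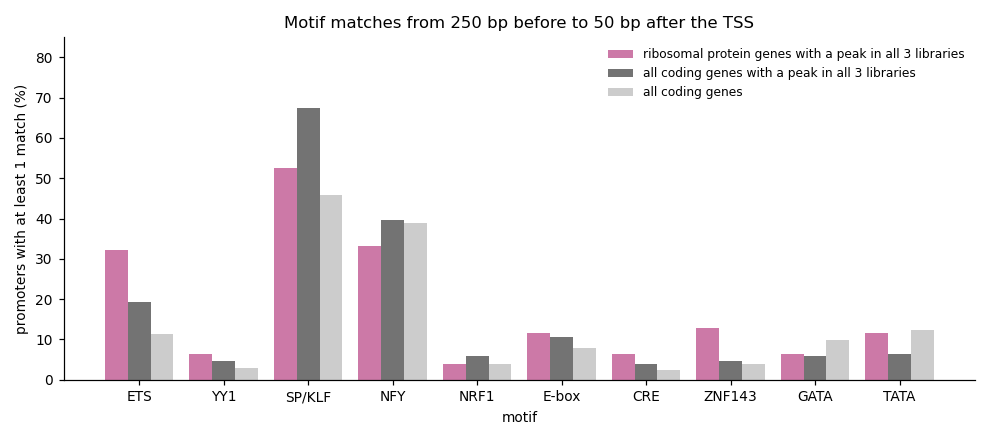
Share of promoters (in %) with at least 1 match of each of 10 motifs in the window from 250 bp before to 50 bp after the TSS, for ribosomal protein genes and all coding genes with a promoter peak in all 3 libraries and for all coding genes. The ETS bar of the ribosomal protein genes reaches 32.1% against 19.3% for the open coding genes, and their SP/KLF bar is lower, at 52.6% against 67.5%.

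Few of these matches lay wholly in a footprint of every library. Of the 32 ETS matches in the 78 members, 53.1% lay in a footprint of at least 1 library and 12.5% in footprints of all 3, against 39.7% and 7.52% of the matches in all open promoters. Of the 68 GGGCGG matches 77.9% and 35.3% did, against 62.4% and 27.5%. The 4 ETS matches in footprints of all 3 libraries belonged to Rps21 and Rpl15, with 2 each. GGGCGG matches of that kind were found in 21 members (26.9%), against 29.3% of all open promoters, so the comparison by promoter and by match differed in direction. Of the 5 CRE matches 3 (60%) were of that kind, in Rpl13, Rpl27a and Rps9, against 44.7% in all open promoters. None of the 5 GATA matches was, where the share in all open promoters was 0.720%. Genes named here only for their matches were chosen after the values were seen.

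The pyrimidine run of the TOP class was searched at the annotated start sites, whose precision limits the match. A C within 5 bp of the annotated TSS followed by at least 4 pyrimidines was found in 24 of 81 members (29.6%), against 18.6% of all coding genes and 19.0% of those with a peak in all 3 libraries. The annotated TSS itself was a C in 30.9%, against 17.3% and 16.6%. With a wider search chosen after seeing the data, a C within 50 bp followed by at least 7 pyrimidines, 50 members (61.7%) had a match, against 30.9% of all coding genes and 28.7% of the open ones. The members had a median of 96 CpG sites in the 2001 bp around the TSS and 52.4% G and C. All coding genes had 64 and 51.6%, and those with a peak in all 3 libraries 91 and 54.1%.

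In structure the members were short genes that often hosted snoRNAs. Their median length was 3289 bp, against 17380 bp for all coding genes. A snoRNA gene lay inside 29 members (35.8%; 56 snoRNAs in all), against 1.26% of coding genes. Rpl4 held 5 and Rpl13a held 4, both named after their values were seen. The 29 hosts, all open in every library, had a median percentile of 85.3 ± 0.935 (SD, n = 3), and the 49 open members without a snoRNA 80 ± 0.912. Hosts were the higher in each library, with 84.4, 85.2 and 86.3 against 80.3, 79.0 and 80.7. Another coding gene started within 1000 bp of a TSS of 15 members (18.5%), in 14 of them on the other strand, against 11.8% of coding genes. The 66 members without such a neighbour had a median percentile of 81.1 ± 0.580, so the level of the set was as high where no neighbour shares the window.

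Lists of other genes of the translation machinery had medians above, near or below that of the cytosolic set. All 22 translation factors and related genes of the TOP class had a peak in all 3 libraries, with a median percentile of 87.5 ± 1.21 (SD, n = 3). Among them were Tpt1 (7.88, 28.9 and 19.2), Eef1g (6.28, 26.2 and 24.1) and Pabpc1 (8.61, 23.6 and 14.8), named after their values were seen. All 42 ribosome biogenesis factors, which process rRNA and assemble the subunits, had a peak in all 3 libraries and a median of 80.3 ± 0.888. Of 78 mitochondrial ribosomal protein genes 77 had such a peak, with a median of 74.0 ± 2.74, below the cytosolic set in each library (77.2, 72.1 and 72.8 against 80.6, 81.1 and 81.0). Of 7 ribosomal protein genes and paralogues that the naming rule misses, 6 had a peak in all 3 libraries, and Rps27rt had none. Rps3a1, the gene of a small-subunit protein, had signals of 9.24, 18.8 and 12.0. Fau (5.92, 23.0 and 14.3), whose protein is cut from a fusion with a ubiquitin-like protein, and Rack1 (2.52, 5.88 and 3.10), a scaffold on the small subunit, had peaks in all 3. Erythroid marker promoters had a median percentile of 73.0 ± 11, with a wider spread between libraries than any of these sets.

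**Figure D5:**
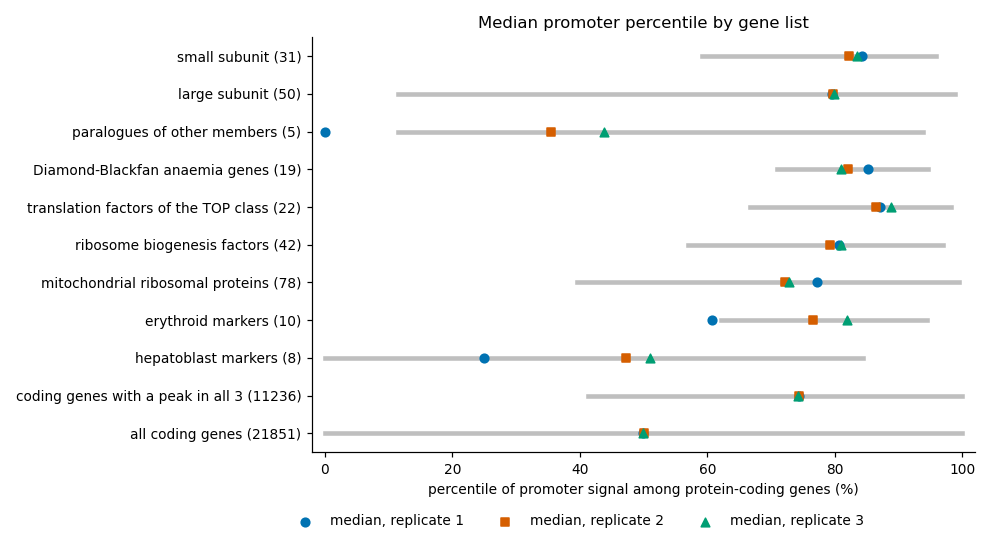
Median percentile of promoter signal (in %) in each replicate for lists of genes, with the number of genes in brackets and a grey line from the lowest to the highest gene mean. The small and large subunit lie near 80 in all 3 replicates, while the hepatoblast markers and the 5 paralogues have medians at or below 51.0.

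Pseudogenes named after the same genes were not open as a rule. The set held 282 genes of any pseudogene type with a symbol of Rpl or Rps, a number and -ps. Pseudogenes with other kinds of names were not counted. Processed copies carry the transcribed sequence and not the parental promoter, but the processed type was not required here. Of the 282, 7, 29 and 7 had a peak within 1000 bp of their start in replicates 1, 2 and 3. In all 3 libraries 5 had one (1.77%), against 96.3% of the members. Of these 5, 1 lay within 1000 bp of the start of a coding gene. The 4 others were Rpl10a-ps1 (0.537, 0.386 and 0.402), Rpl5-ps2 (1.47, 1.28 and 0.561), Rpl34-ps1 (0.817, 1.03 and 0.789) and Rpl21-ps8 (0.817, 2.10 and 2.65), named because they are so few. Their signals were below those of all 78 open members in replicates 1 and 2, and in replicate 3 only that of Rpl21-ps8 was not. A median of 24.1% of the 32-base words in the pseudogene windows occurred more than once in the genome (range 0.0508 to 100%). Reads from such stretches may not be placed, and the part this played in the low share was not tested.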

How the data were processed

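DNase-seq libraries of embryonic liver were numbered and grouped by the labels' replicate numbers. The peak signal is the value the authors deposited per peak, called on each library alone in mm10 per the text listing deposited with it. The sources used here do not name the peak caller or the scaling of the signal. The longer of both deposited peak lists per library was used. The deposited false discovery rate (q-value) files go up to 0.05. Footprint files, as deposited, hold 1 constant (0.01) in every row, so only their positions were used.

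Genes, TSSs and snoRNAs came from the GENCODE M21 basic annotation, counted by gene ID with at least 1 coding transcript on the nuclear chromosomes, which left out 100 coding genes. Sequence came from the RefSeq copy of the same build. The best TSS of a gene was the coding TSS whose own window had the highest mean signal over the libraries. A shared footprint position was a merged run of overlapping footprints from all 3 libraries. A motif match counted as in a footprint where all its bases lay in it. Overlaps were computed in Python 3.11.15 with NumPy 2.4.6 and tested on simulated data. SciPy 1.17.1 gave exact binomial 95% intervals for the sequence shares, which served to judge alternatives. Read depth is unknown, so no counting interval is given for signals.

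The members and lists were chosen with earlier results of these data known. Named genes were members without a peak in at least 1 library, the 6 highest and 6 lowest by mean percentile, the 4 with the largest SD, the 3 with the most shared footprints (4 with a tie), Rplp0, Rplp1, Rplp2, Rpsa, Rpl5, Rpl11, Rps19 and the paralogues. Gas5, a non-coding gene, was left out of the list of translation factors. The alternatives were another peak list, equal numbers of peaks, other windows, the most upstream TSS, other overlap rules, a stricter false discovery rate, other readings of the naming rule and leaving out each library. The values of some single genes are not reported here.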

Additional observations from a re-analysis of the deposited data

How the results depend on the processing

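No paired analysis was possible because the libraries form 1 group and no result comes from a test. Of 43 alternatives on peaks, footprints and open bp, 37 left a value the same. The same meant a move below the spread between libraries or, for counts, below 1.5 times. Percentiles, counts and open bp cannot be negative, so only the signed distance could reverse, and it stayed negative throughout. The median percentile of the members (80.9) was 81.3 with a window of 500 bp, 81.5 with 2500 bp, 81.3 with the most upstream TSS alone, 81.2 without the paralogues and 73.2 when ranked by open bp in place of signal. The last uses another measure, and the other shifts are small beside the range of the members. The median distance to the strongest peak (-27.3 bp) was -16.2 bp with the most upstream TSS alone. With that TSS 75 members had a peak and 75 a footprint in all 3 libraries, and Rps10, Rps14 and Rpl17 lacked a peak there in at least 1 library. Leaving out 1 library gave 78 to 79 members with a peak, 78 with a footprint each time, median percentiles of 80.8 to 81.0, distances of -29.2 to -24.2 bp and 797 to 1076 open bp. Equal numbers of the strongest peaks (34369 per library) left 78 members with a peak. Neither these nor the shorter peak list can move the percentile of genes far above the weakest peaks, so their unchanged median says nothing about stability. Of 12 further alternatives on sequence 11 stayed within the binomial interval, and the wider search for a pyrimidine start, chosen after seeing the data, moved that share from 29.6% to 61.7%. Replicate 1 had the fewest peaks and limits what is found in all 3 libraries.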

Other observations

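The members on the X chromosome were looked at after the values were seen. The 4 genes, Rpl10 (mean percentile 78.0 ± 9.25), Rpl36a (75.5 ± 4.45), Rpl39 (71.0 ± 2.41) and Rps4x (59.2 ± 0.707; SD, n = 3 libraries), all encode proteins needed in every cell, and by this mean all stood below the median of the members (80.9). Their median percentile was 69.0, 71.6 and 73.5 in replicates 1, 2 and 3, a mean of 71.4 ± 2.23, against 83.5 ± 1.09 for the 74 open members elsewhere. The 336 coding genes on the X chromosome with a peak in all 3 libraries had a median of 62.8 ± 3.97, against 74.8 ± 0.164 for the 10900 elsewhere. In each library the median of the 4 lay above that of the open X-linked genes and below that of the members elsewhere. Single genes departed from this: Rps4x, at percentiles of 59.3 and 58.4, was below the medians of open X-linked genes (63.5 and 66.4) in replicates 2 and 3, and Rpl10, at 87.8, was above that of the members elsewhere (84.3) in replicate 3. The labels give the sex of the embryos as not collected, and its part in these values was not tested.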
